A study of Mus musculus with 4 samples.

Results

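The enzymes that write, maintain and remove 5-methylcytosine were followed at 9 genes: the methyltransferase genes Dnmt1, Dnmt3a and Dnmt3b, the cofactor genes Dnmt3l, Uhrf1 and Uhrf2, and the dioxygenase genes Tet1, Tet2 and Tet3. Every probe set of the mouse genome array whose only annotated gene symbol is one of these 9 was taken. This gave 22 of the 34945 probe sets with 1 symbol, and each of the 9 genes, of 18193 in all, had at least 1. RNA came from purified mouse leukemic cells that carried the MLL-AF9 fusion gene and had grown in the marrow of C57BL/6 recipients. The wild-type group held 2 samples of cells with a wild-type genotype. The Ezh2 KO group held 2 samples whose genotype entry is Ezh2 KO, although another entry for these samples names Ink4a-/-Arf-/- marrow as the source that repopulated the recipients. Both groups carried MLL-AF9, and 1 array was made per sample, from RNA of about 10000 cells. The labels give no age, no account of how Ezh2 was deleted and no word on whether replicates stem from different mice. The spread behind every p-value is that of these arrays and may be technical.

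DNA methylation is placed on unmarked CpG sites by Dnmt3a and Dnmt3b, which Dnmt3l assists without having catalytic activity of its own. After replication Uhrf1 recognises the half-methylated sites and brings Dnmt1, which copies the mark to the new strand. The Tet enzymes oxidise 5-methylcytosine to 5-hydroxymethylcytosine and further products, a step toward removal of the mark. In human myeloid malignancies DNMT3A and TET2 are among the genes most often mutated. Ezh2 is the histone H3 methyltransferase of the Polycomb complex PRC2, and the comparison asks whether transcripts of the DNA methylation machinery differed between the leukemic cells of the 2 genotypes.

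The outcome was narrow. A probe set was tested where its mean intensity, in the arbitrary units of the scanner software, was above 21.9, the 30th percentile of the array. Of the 21 members that met this, 1 differed between the genotypes at a limma adjusted p under 0.05, the probe set of Dnmt3l, which was lower in the Ezh2 KO arrays. That share, 4.76%, stands beside 7.98% of all 25580 probe sets tested, and beside 3.91% that were lower in the knockout. No member was higher by the same rule, against 4.08% of all probe sets. Another 4 members, of Dnmt3a and Uhrf2, had an unadjusted p under 0.05 and did not pass after adjustment. With Dnmt3l this makes 5 of 21, near the 21.9% of all tested probe sets at that level. The groups of arrays did not overlap in 10 of the 21 tested members, 6 higher and 4 lower. Over all tested probe sets 50.4% had groups that did not overlap, 27.3% higher and 23.2% lower. The median log2 change of the tested members was 0.03, as it was over all tested probe sets. Their median absolute log2 change was 0.14, against 0.20 over all.

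**Figure D1:**
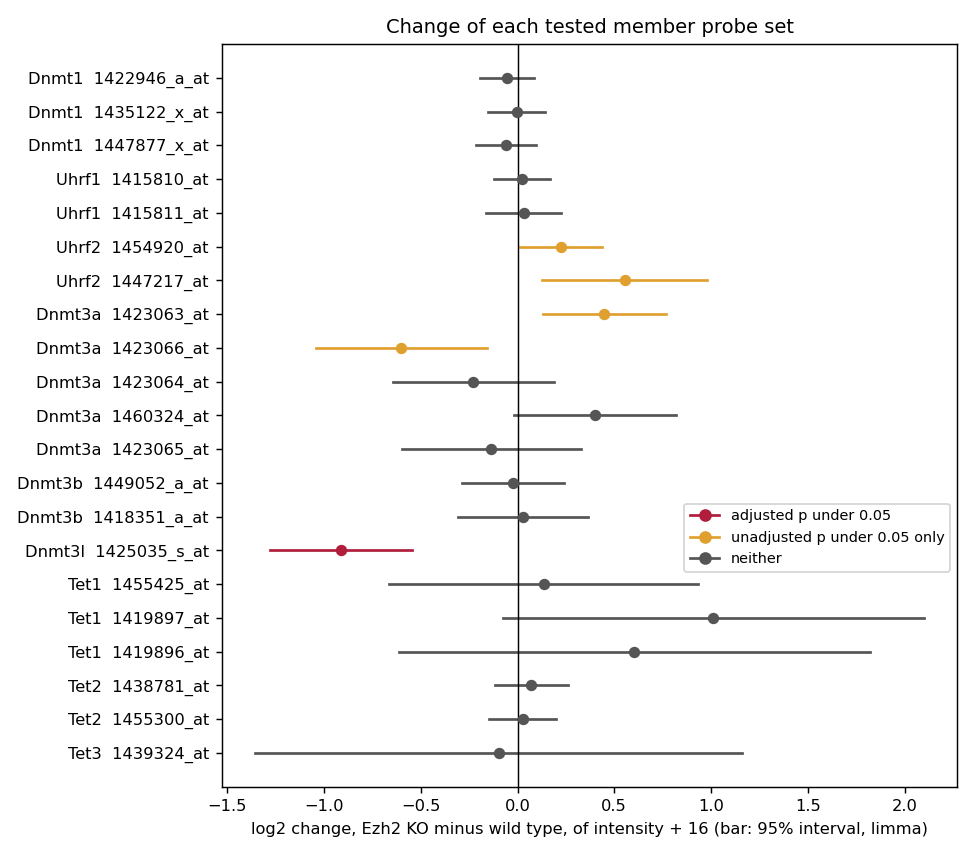
Log2 change of each tested member probe set (Ezh2 KO minus wild type, on intensity + 16) with its 95% interval from limma, 2 arrays a group. The Dnmt3l probe set lies at -0.91 with an interval from -1.28 to -0.54, and the intervals of the bright Dnmt1, Uhrf1 and Tet2 probe sets are narrow and include 0.

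Because the only called member was Dnmt3l, the letters in front of its annotated starts are shown beside those of its catalytic partners Dnmt3a and Dnmt3b. RefSeq lists 3 start sites for Dnmt3l, and the 250 bases before each were read on the plus strand of GRCm38.p6, at chr10:78042037-78042286, chr10:78049592-78049841 and chr10:78055085-78055334. The windows of the first Dnmt3a start and the Dnmt3b start are at chr12:3806730-3806979 and chr2:153649199-153649448, also on the plus strand. Capitals mark each CG, the dinucleotide that these enzymes methylate, and all other bases are in lower case.
Dnmt3l start 1: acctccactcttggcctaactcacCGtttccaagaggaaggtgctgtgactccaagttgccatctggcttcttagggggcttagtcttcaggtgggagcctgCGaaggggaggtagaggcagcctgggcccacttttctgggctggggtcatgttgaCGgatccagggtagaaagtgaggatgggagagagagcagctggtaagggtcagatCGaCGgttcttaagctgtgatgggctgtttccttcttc
Dnmt3l start 2: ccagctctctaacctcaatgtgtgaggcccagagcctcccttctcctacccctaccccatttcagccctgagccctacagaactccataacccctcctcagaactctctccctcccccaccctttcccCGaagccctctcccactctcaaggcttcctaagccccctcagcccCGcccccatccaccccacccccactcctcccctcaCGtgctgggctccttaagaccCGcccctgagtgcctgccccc
Dnmt3l start 3: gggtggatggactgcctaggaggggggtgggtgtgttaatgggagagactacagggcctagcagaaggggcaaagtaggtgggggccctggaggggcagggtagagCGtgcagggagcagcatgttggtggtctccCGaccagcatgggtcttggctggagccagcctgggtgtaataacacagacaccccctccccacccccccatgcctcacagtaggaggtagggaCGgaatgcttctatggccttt
Dnmt3a start 1: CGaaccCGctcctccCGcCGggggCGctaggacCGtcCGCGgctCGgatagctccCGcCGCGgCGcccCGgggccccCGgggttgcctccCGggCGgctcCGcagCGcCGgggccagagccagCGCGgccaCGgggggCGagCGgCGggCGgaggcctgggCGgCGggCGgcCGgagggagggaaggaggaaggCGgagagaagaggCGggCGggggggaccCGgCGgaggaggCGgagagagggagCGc
Dnmt3b start 1: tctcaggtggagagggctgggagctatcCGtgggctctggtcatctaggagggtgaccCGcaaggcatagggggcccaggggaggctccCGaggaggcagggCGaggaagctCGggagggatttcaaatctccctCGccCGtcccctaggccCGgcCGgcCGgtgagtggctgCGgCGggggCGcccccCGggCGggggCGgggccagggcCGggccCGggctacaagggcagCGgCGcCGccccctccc

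The 3 Dnmt3l windows held 5, 4 and 3 CG, all under the median of 6 over 32851 windows of the same length in the RefSeq promoter table. Of all these windows 92.1% held at least 1 CG, and CG reads the same on both strands. Dnmt3a start 1 held 38 CG, more than 98.1% of all windows, and Dnmt3b held 21, more than 83.7%. The other starts of Dnmt3a held 40 and 15, and the first of these windows overlaps that of start 1. Tet2 had the densest window, with 51 CG, while Tet3 had 17 and Tet1 15. Uhrf2 had 23 and the starts of Uhrf1 had 10 and 30. Dnmt1 ranged from 2 to 26 over its 3 starts, so a CG-poor window was not particular to Dnmt3l. No methylation was measured in these samples, and which start is in use was not analysed here.

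The arrays resembled each other closely. Pearson's r of log2 values across the tested probe sets was 0.982 for the wild-type pair, 0.983 for the Ezh2 KO pair and 0.973 to 0.977 for pairs of different genotype, a description of these arrays, since probe sets are not replicates. The ratio of 3-prime to 5-prime signal of the actin control ranged from 1.21 to 1.26. The Ezh2 transcript had 5216 and 5315 intensity units in the wild type and 4989 and 4991 in the knockout (limma adjusted p = 0.532). Its 1 probe set has an unknown place relative to the deletion and so checks nothing. All 10 markers fixed for myeloid leukemic cells were above the filter, with summed intensities of 73134 to 75143 in the wild type and 75856 to 79234 in the knockout. By limma 4 of these 10 changed, or 40%, in both directions. Over all probe sets tested 7.98% changed, and with only the brightest probe set of each gene 1639 of 13928. The integrin gene Itgam rose 1.67-fold and the receptor gene Csf1r 1.40-fold. The transcription factor gene Cebpa fell 1.54-fold and the Fc receptor gene Fcgr3 1.65-fold. All 4 are named after their values were seen. The call of Cebpa was lost without wild-type replicate 2 (limma adjusted p = 0.0657) and that of Csf1r with its probe sets averaged (adjusted p = 0.0612). Of the matched markers of other cells, 3 of 6 for T cells, 4 of 5 for B cells, 2 of 5 for erythroid cells and 6 of 7 for stromal and endothelial cells were above it. By limma 0 of these 15 changed, and 1, the pericyte receptor gene Pdgfrb, had an unadjusted p under 0.05 (50.1 and 51.1 units against 79.4 and 150.1). The summed stromal and endothelial level was 249 to 292 in the wild type and 336 to 426 in the knockout. T cell sums were 149 to 201 and 155 to 249, B cell sums 859 to 876 and 855 to 1002, and erythroid sums 142 to 165 and 142 to 149. Among B cell markers Cd79b had 739 to 848 units, and the other chain of the receptor, Cd79a, had 1.90 to 22.0. The part of these markers and cells in any result below, the Dnmt3l difference included, was not tested.

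Dnmt3l, the inactive cofactor of de novo methylation best known from germ cells and embryonic stem cells, is read by a single probe set, 1425035_s_at. It had 309 and 375 intensity units on the wild-type arrays and 168 and 180 on the Ezh2 KO arrays. Both knockout arrays lay below both wild-type arrays, and the gap between the groups was wider than the spread within either. The means were 342 ± 46.4 and 174 ± 8.57 (SD, n = 2 arrays a group, as for all means below). The level fell by 0.91 on the log2 scale (SE 0.16), or 1.88-fold with a 95% interval of 1.46-fold to 2.43-fold (limma adjusted p = 0.00952 over all 25580 probe sets). A larger absolute change was seen in 4.39% of the probe sets tested. In bulk RNA, fewer cells with the transcript and less of it in each cell cannot be told apart.

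The call depended on 1 array. Without wild-type replicate 2, the brighter of the wild-type arrays for this probe set, the log2 difference was -0.78 and the adjusted p was 0.0655. It held without each of the other arrays, at falls of 0.86 to 1.04 on the log2 scale. It was also lost under a single prior variance (adjusted p = 0.145) and in a plain test per probe set (adjusted p = 0.277), under which limma and the plain test called 0 and 2 of all probe sets. The suffix _s_at of the identifier marks a probe set that can match more than 1 transcript, so some of the signal may come from related RNA. With only 1 probe set for Dnmt3l, no other measurement on the array bears on the fall.

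The catalytic de novo enzymes gave no call in the main setting. Dnmt3a had 5 probe sets, for which the annotation names 1 representative sequence, and they did not move together. Probe set 1423063_at had 463 and 414 units in the wild type and 688 and 529 in the knockout, a log2 difference of 0.45 (95% interval 0.13 to 0.77, limma adjusted p = 0.0915). Probe set 1423066_at ran the other way, with 273 and 249 units in the wild type and 199 and 139 in the knockout, a log2 difference of -0.60 (-1.04 to -0.16, adjusted p = 0.102). In both the groups of arrays did not overlap, in opposite directions.

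The remaining Dnmt3a probe sets were also split in direction. The values of 1460324_at were 138 and 169 in the wild type against 207 and 206 in the knockout, a log2 difference of 0.40 (adjusted p = 0.250). For 1423064_at they were 253 and 209 against 217 and 173, with overlapping groups and a difference of -0.23 (adjusted p = 0.541). The values of 1423065_at were 147 and 140 against 120 and 139 (difference -0.14, adjusted p = 0.772). Thus 2 probe sets of Dnmt3a were higher and 3 lower, and 0 of the 5 passed the adjusted threshold. Averaged over its 5 probe sets the gene had a log2 difference of -0.02, where its brightest probe set alone had 0.45.

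These opposed probe sets were picked out after their values were seen, for their directions. On each array the log2 ratio of 1423063_at to 1423066_at was 0.73 and 0.70 in the wild type and 1.71 and 1.81 in the knockout, which restates those directions array by array and is given with no test. Which of the probe sets follows the level of the gene cannot be read from these values, and the positions of their probes in Dnmt3a transcripts were not analysed here. With knockout replicate 1 left out, 1423066_at passed the threshold at -0.84 (adjusted p = 0.0254), and with knockout replicate 2 left out 1423063_at passed at 0.63 (adjusted p = 0.00921).

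Dnmt3b, the second catalytic de novo enzyme, had overlapping groups at both of its probe sets. The brighter, 1449052_a_at, had 702 and 876 units in the wild type and 786 and 756 in the knockout (log2 difference -0.02, 95% interval -0.29 to 0.24, limma adjusted p = 0.939). The other, 1418351_a_at, had 292 and 252 against 277 and 277 (difference 0.03, interval -0.31 to 0.36, adjusted p = 0.948). Both intervals lie within a 1.5-fold change in either direction.

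**Figure D2:**
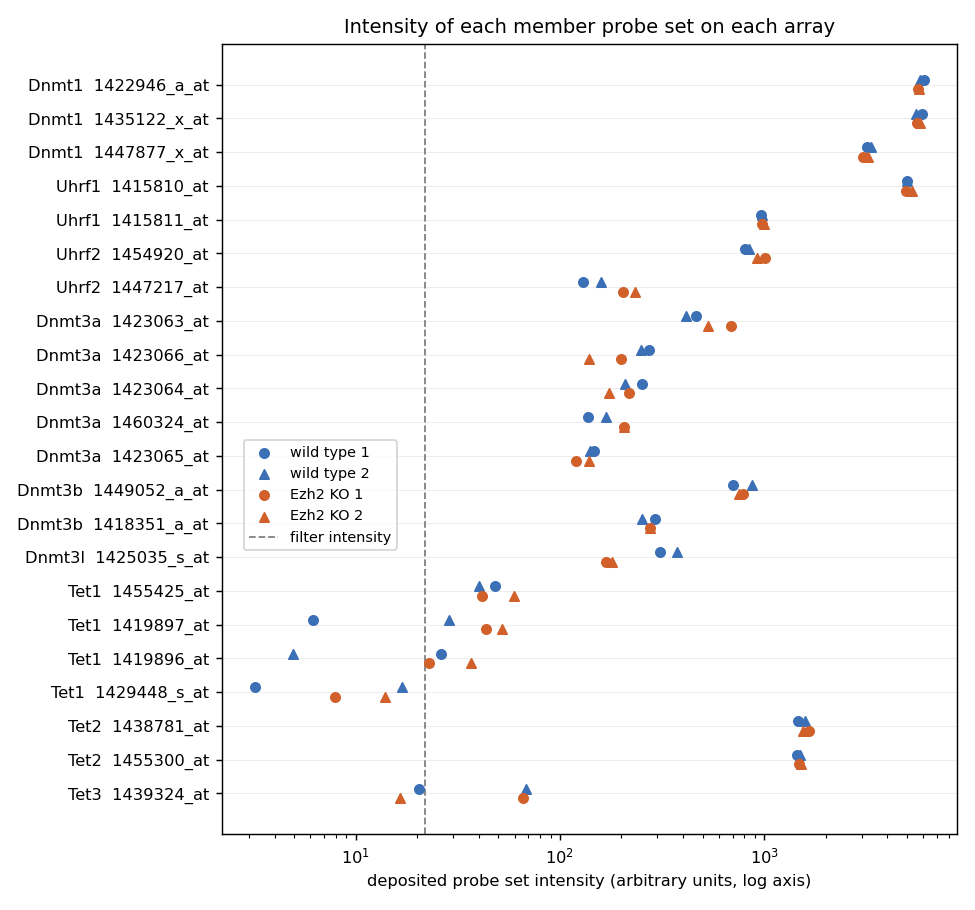
Deposited intensity of all 22 member probe sets on the 4 arrays, on a log axis, with circles for replicate 1, triangles for replicate 2 and the filter intensity of 21.9 as a dashed line. Dnmt1, Uhrf1 and Tet2 sit far above the filter with the groups close together, Dnmt3l shows separate groups, and Tet1 and Tet3 lie around the line.

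The maintenance pair Dnmt1 and Uhrf1 was among the most precisely measured. Dnmt1 had 3 probe sets, with 6066 and 5823 units in the wild type and 5677 and 5759 in the knockout for 1422946_a_at (log2 difference -0.06, 95% interval -0.20 to 0.08, limma adjusted p = 0.679). Probe set 1435122_x_at had 5939.8 and 5546 against 5616 and 5825 (difference -0.005, adjusted p = 0.979), and 1447877_x_at had 3190.2 and 3330.0 against 3037 and 3213 (difference -0.06, adjusted p = 0.687). The _x_at suffix marks probes that may bind other transcripts too. All 3 intervals lie within a 1.5-fold change.

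Uhrf1, the reader of half-methylated DNA that recruits Dnmt1, had 5029 and 5035 units in the wild type and 4964 and 5273 in the knockout for 1415810_at (log2 difference 0.02, 95% interval -0.12 to 0.17, limma adjusted p = 0.878). Its second probe set, 1415811_at, had 965 and 971 against 975 and 1004. There the groups did not overlap, but the difference of 0.03 had an interval of -0.16 to 0.23 (adjusted p = 0.883). Dnmt1 and Uhrf1 are both expressed with DNA replication in cycling cells. Of 23 tested S-phase genes, 1 was higher and 3 were lower in the knockout, with a median log2 change of -0.11. The called share was 17.4%, against 7.98% of all probe sets tested. The higher gene was the ribonucleotide reductase gene Rrm2 (1.19-fold, limma adjusted p = 0.0367). Its call was lost under 5 of the 14 alternatives described below, median centring and no filter among them. The lower genes were the helicase subunit gene Gins1 (1.28-fold), the clamp loader gene Rfc3 (1.23-fold) and the flap endonuclease gene Fen1 (1.21-fold). Each of these 3 calls was lost under 4 to 8 of 14 alternatives (all but a single prior variance and the plain test), among them the omission of either wild-type array or of knockout replicate 1. Pcna, the sliding clamp that binds Dnmt1, had 21754 and 20870.3 against 22915 and 20839.5 units (adjusted p = 0.813), and the remodeller gene Hells had 3896 and 3912 against 3563 and 3515 (log2 difference -0.14, adjusted p = 0.240).

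Uhrf2, a paralog of Uhrf1 that can also bind hydroxymethylated DNA, was higher in both knockout arrays at both probe sets without passing the adjusted threshold. Probe set 1454920_at had 804 and 845 units in the wild type and 1012 and 922 in the knockout (log2 difference 0.22, 95% interval 0.01 to 0.44, unadjusted p = 0.0410, limma adjusted p = 0.203). Probe set 1447217_at had 130.3 and 158 against 203 and 234 (difference 0.55, interval 0.13 to 0.98, unadjusted p = 0.0165, adjusted p = 0.117). The groups did not overlap at either. These probe sets, which the annotation ties to different representative sequences, had the same direction and differed in size. Settings that change only the filter, variance or test keep the log2 difference. Groups that do not overlap also keep their direction when 1 array is left out, so those alternatives could not reverse it. The differences of 1454920_at and 1447217_at were 0.23 and 0.49 under quantile normalization and 0.18 and 0.51 under median centring. Neither probe set passed under any alternative.

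**Figure D3:**
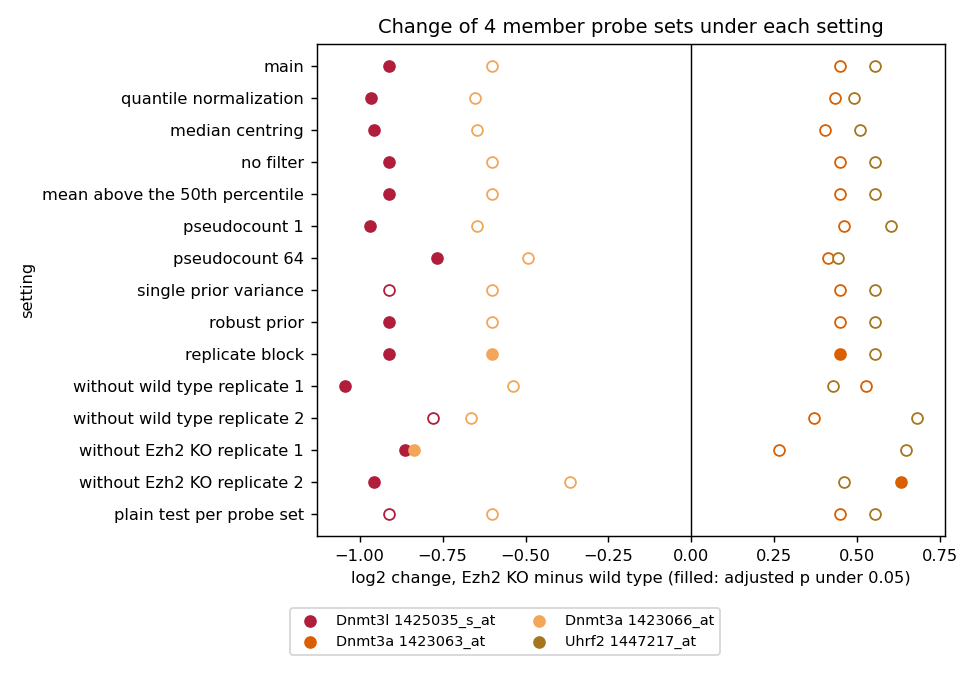
Log2 change (Ezh2 KO minus wild type) of the Dnmt3l probe set, the opposed Dnmt3a probe sets and the dimmer Uhrf2 probe set under the main setting and each alternative, with filled points where the adjusted p was under 0.05. No drawn point crosses 0. The Dnmt3l points are open for 3 settings: a single prior variance, no wild-type replicate 2 and the plain test.

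Tet2, the dioxygenase often mutated in human myeloid malignancies, lay far above the filter at both of its probe sets. They had 1464 and 1592 units in the wild type and 1665 and 1547 in the knockout for 1438781_at, and 1455 and 1496 against 1489 and 1518 for 1455300_at. The groups overlapped at both. The log2 differences were 0.07 (95% interval -0.12 to 0.26, limma adjusted p = 0.699) and 0.03 (-0.15 to 0.20, adjusted p = 0.887), within a 1.5-fold change.

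Tet1, the enzyme abundant in embryonic stem cells, had 4 dim probe sets. For 1455425_at, the brightest, the values were 48.1 and 40.3 in the wild type and 41.4 and 59.9 in the knockout (log2 difference 0.14, adjusted p = 0.875). Probe set 1419897_at had 6.14 and 28.7 against 43.4 and 51.8, so that both knockout arrays were higher, with a difference of 1.01 whose 95% interval ran from -0.08 to 2.10 (adjusted p = 0.263). One of these wild-type values is below the filter intensity of 21.9. Probe set 1419896_at had 26.2 and 4.91 against 22.8 and 36.5 (difference 0.60, adjusted p = 0.588). The only member left out of the test, 1429448_s_at, had 3.21 and 16.8 against 7.93 and 13.9, all below the filter. Without detection calls, such values are not separable from background.

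Tet3, the dioxygenase that acts in the zygote, was read by 1 probe set, 1439324_at, with 20.4 and 67.9 units in the wild type and 66.1 and 16.5 in the knockout. Replicates of one group differed more than 3-fold, and the groups overlapped. The log2 difference of -0.10 had a 95% interval from -1.36 to 1.16 (limma adjusted p = 0.949), which holds changes of 2-fold in either direction.

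Of the 20 tested members that did not pass, 10 had a 95% interval that lay within a 1.5-fold change in either direction. They were the 3 probe sets of Dnmt1, both of Uhrf1, Dnmt3b and Tet2, and 1454920_at of Uhrf2. For the other 10, the probe sets of Dnmt3a, Tet1 and Tet3 and 1447217_at of Uhrf2, the interval reached beyond a 1.5-fold change. In 3 of these, 1423063_at and 1423066_at of Dnmt3a and 1447217_at of Uhrf2, the interval left out 0 before adjustment over all probe sets.

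**Figure D4:**
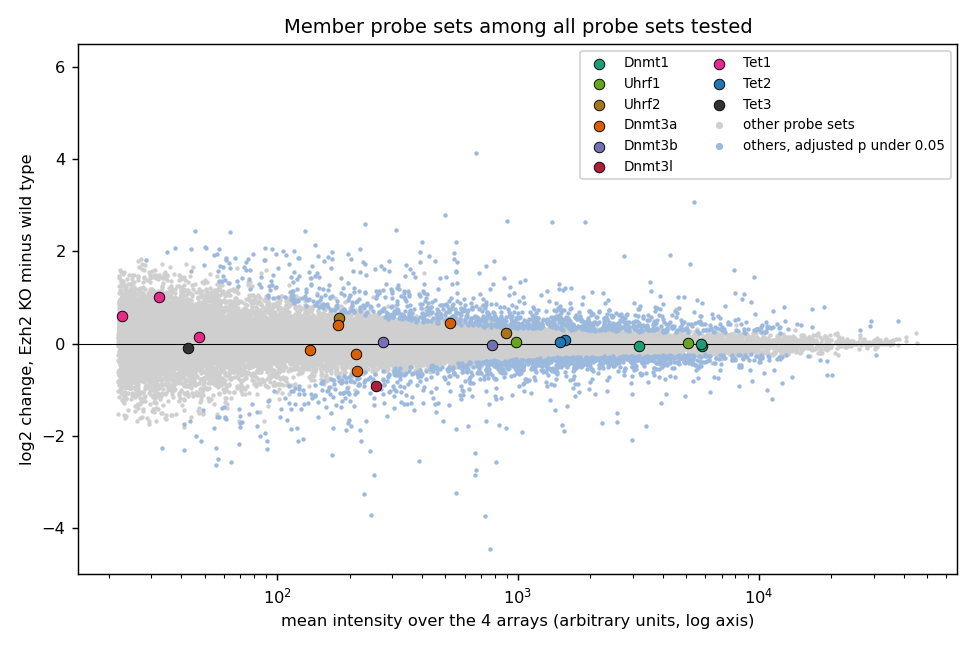
Log2 change against mean intensity (log axis) for all 25580 probe sets tested, with those at an adjusted p under 0.05 in light blue and the 21 tested members as large points coloured by gene. Most members lie in the grey band around 0, and the Dnmt3l point lies below it.

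Genes that act with these enzymes were taken from lists fixed with the members, each gene by its brightest probe set. Among the genes listed as readers of methylated DNA, 1 of 8 tested was higher and 1 lower (median log2 change 0.05). Whether each of them binds methylated DNA was not tested. Zbtb4, a zinc finger protein that binds methylated CpG, rose from 227 and 193 units to 454 and 434, or 2.04-fold (limma adjusted p = 0.00280), and passed under all 14 alternatives other than a single prior variance and the plain test. Mbd3, a subunit of the NuRD corepressor, fell 1.30-fold (adjusted p = 0.0495), a call lost under 6 of the same 14, including the omission of either wild-type array or of knockout replicate 1. Of 14 partners of the Dnmt enzymes 0 passed (median -0.08), with 1 at an unadjusted p under 0.05. Of 7 tested partners of the Tet enzymes 0 passed (median -0.03), also with 1 at that level. Another 2 Tet partners had a mean below the filter. Several of the 7 lay near it, with group means from 15.9 to 44.6 units, where a call is harder to reach.

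In the removal of oxidised bases 2 of 9 tested genes were lower and 0 higher (median 0.08). At an unadjusted p under 0.05 there were 5 of the 9, in both directions, against 21.9% of all probe sets tested. The abasic site endonuclease gene Apex1 fell 1.26-fold (limma adjusted p = 0.0110, 0.0669 without wild-type replicate 1), and Parp1, which senses strand breaks, fell 1.24-fold (adjusted p = 0.0416). The call of Parp1 was lost on leaving out any 1 of the 4 arrays. Of 12 genes for the methyl donor and for 2-oxoglutarate, the cosubstrate of Tet enzymes, 1 was lower and 0 higher (median -0.11). Idh3a, a subunit of the mitochondrial isocitrate dehydrogenase that makes 2-oxoglutarate, fell 1.34-fold from 5002 and 4846 units to 3720 and 3617 (adjusted p = 0.00409). With all of its probe sets averaged it did not pass (adjusted p = 0.429).

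Genes listed because DNA methylation is known to act in their silencing or allelic expression were counted as well. Whether it does so in these cells was not tested, and Tdrkh, named below, was above the filter in both wild-type arrays. Of 15 matched genes listed as germline genes with methylated promoters, 9 had a mean below the filter. Of the 6 tested, 1 was higher, the piRNA pathway gene Tdrkh, at 1.68-fold (180 and 142 units against 272 and 288, limma adjusted p = 0.0327), and its call was lost without wild-type replicate 2 or either knockout array. Of 17 matched imprinted genes 7 had a mean below the filter. Several of the 10 tested were dim, with group means from 31.2 to 62.2 units. Among these 10, 1 was higher, the receptor gene Igf2r at 1.48-fold (1338 and 1212 units against 2063 and 1740.5, limma adjusted p = 0.00837). The call of Igf2r held under the same 14 alternatives as that of Zbtb4. These shares of called genes come from few genes, and none is set apart here from the share over all. Over all probe sets that share was 7.98%. The lists take the brightest probe set of each gene, and by that rule, fitted alone, 1639 of 13928 passed.

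**Figure D5:**
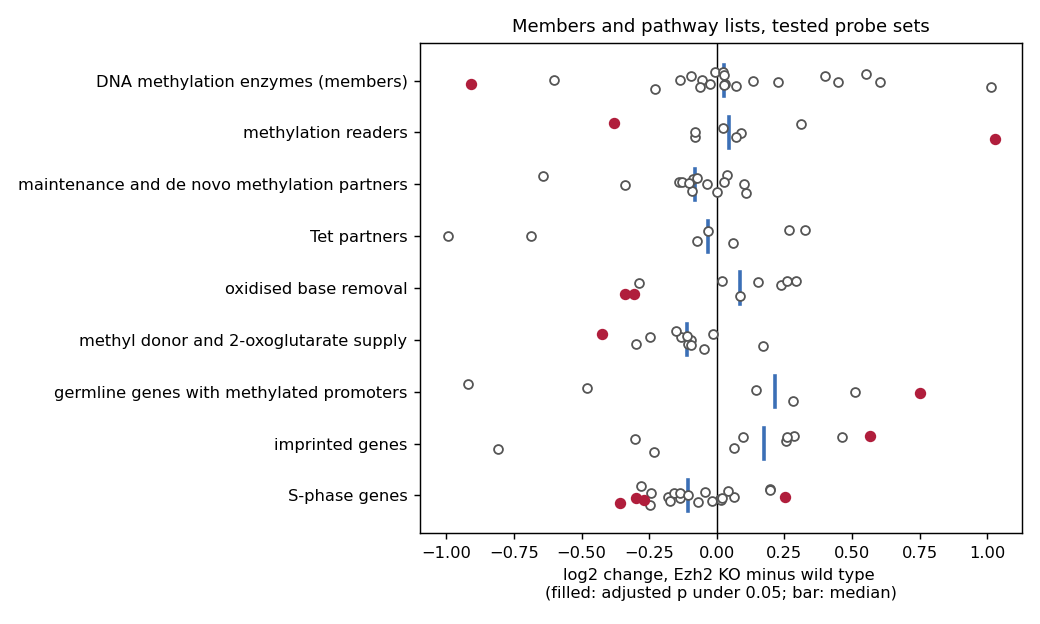
Log2 change of each tested member probe set (top) and of each tested gene in 8 pathway lists, with filled points at an adjusted p under 0.05 and a bar at each median. The medians lie between -0.11 and 0.21, and called genes are few in every list.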

How the data were processed

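Gene expression was measured on 1-colour Affymetrix arrays, 2 wild-type and 2 Ezh2 KO, with groups and replicate numbers taken from the sample titles. The authors deposited linear-scale intensities from Affymetrix Expression Console, as the submitters' processing notes say. Its version and summary method are not given in the sources used here. After trimming 2% at either end, all 4 arrays had a mean of 500, which removes any difference in total mRNA per cell.

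Of 45101 probe sets, 64 controls, 932 with several symbols and 9160 unnamed were left out. The 25580 whose mean exceeded the 30th percentile of non-control probe sets (21.9) were tested as log2(intensity + 16), so that fold changes understate those of dim genes, with limma 3.58.1 (lmFit and eBayes, R 4.3.3), a prior variance following intensity and Benjamini-Hochberg adjustment at 0.05. The fit was also run on simulated data. Their variances were drawn from the prior of the same fit, so that run cannot check the shared variance. The number of arrays limits the precision. Members, lists and tests were chosen with earlier results of these data known. Every member probe set is named, and of each list up to 3 changed genes with the largest change, plus Pcna and Hells. Rrm2 was added later, as the only higher S-phase gene. The 4 arrays are too few to name genes of similar pattern. Alternatives were another normalization, filter, pseudocount, prior variance, threshold, test and probe set rule, the replicate block, and leaving out each array. Their application to list genes was added after the data were seen. Promoter sequences came from RefSeq for GRCm38.p6, where all 9 genes matched. Python 3.11.15 drew the figures.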

Additional observations from a re-analysis of the deposited data

How the results depend on the processing

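With 4 arrays the limma counts rest on the shared variance. Of all probe sets 2042 changed (1043 higher, 999 lower), against 0 with a single prior variance, although 4206 had an unadjusted p under 0.05 there (5594 in the main setting), and 2 in the plain test. The count was 1229 with no filter, 3252 at an adjusted p of 0.10, and 1002 over averaged genes (of 13202). Median centring moved the share of higher calls from 51.1% to 37.6% (830 higher, 1380 lower). Leaving out 1 array gave 1112 to 2030, the lowest when wild-type replicate 1 was dropped and 1316 when wild-type replicate 2 was. The labels do not say that replicate numbers pair the arrays, and deviations of same-numbered arrays correlated at 0.039. The replicate block gave 3469 calls.

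Of the members 1 changed in the main setting, 0 with a single prior variance, 0 in the plain test, 2 at an adjusted p of 0.10 and 3 with the replicate block, where both opposed Dnmt3a probe sets joined Dnmt3l. Leaving out 1 array gave 0 to 2. Of 308 member values under alternatives 284 kept direction and side of the threshold, 3 lost and 4 gained a call, and 17 changed sign, with 0 calls among those. Many of the 308 could not change sign. A different filter, prior variance or test, the replicate block and the brightest probe set leave each log2 change as it was. Sign changes, in log2 units, were as follows. Median centring gave -0.022 for Uhrf1 1415810_at, -0.015 for 1415811_at, -0.020 for Dnmt3b 1418351_a_at, -0.019 for Tet2 1455300_at and -0.0096 for Pcna. Quantile normalization gave -0.011 for Dnmt3b 1418351_a_at and 0.020 for Dnmt1 1435122_x_at. Leaving out 1 array at a time gave -0.019 to 0.067 for Uhrf1 1415810_at, -0.073 to 0.13 for Dnmt3b 1418351_a_at, -0.054 to 0.044 for Dnmt1 1435122_x_at, -0.76 to 0.57 for Tet3, -0.18 to 0.13 for Dnmt3b 1449052_a_at, -0.066 to 0.34 for Tet1 1455425_at and -0.032 to 0.10 for Pcna. Averaging probe sets gave -0.023 for Dnmt3a, 0.0012 for Dnmt3b and 0.022 for Hells. The cause of these shifts was not tested.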

Other observations

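The protein-coding genes on either side of each member in RefSeq were read the same way, 18 neighbours of which 13 were tested, and 1 of them passed. It was Bola3, next to Tet3, an iron-sulfur cluster assembly factor, which had 1977 and 1774 units in the wild type and 1363 and 1406 in the Ezh2 KO (limma adjusted p = 0.0136), and it was chosen for mention after its values were seen. Over all probe sets tested 7.98% passed. Each neighbour was read by its brightest probe set, and by that rule, fitted alone, 1639 of 13928 passed. The call of Bola3 was not followed under the alternatives. Neither neighbour of Dnmt3l passed. Icosl, a costimulatory ligand, had 164 and 156 units against 186 and 126 (adjusted p = 0.923), and Aire, the regulator of self-antigen expression in the thymus, was below the filter on all 4 arrays, between 3.35 and 8.47.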
